A study of Mus musculus with 18 samples.

Results

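The formins examined here were 10 genes of the mouse formin family, Diaph1, Diaph2, Diaph3, Daam1, Daam2, Fmnl1, Fmnl2, Fmnl3, Inf2 and Fhod1, in marrow-derived mesenchymal stem cells (MSC). They were picked by gene symbol, and each matched 1 row, so that they made up 10 of the 54347 genes in the deposited table. Formins start new actin filaments and then ride on the growing barbed end, adding subunits that profilin delivers, and the product is an unbranched filament. The Arp2/3 complex does the opposite kind of work, since it starts a new filament as a branch on the side of an old filament. Most formins are folded shut until a small GTPase binds them, and in adherent cells they build stress fibers, filopodia and the contractile ring of dividing cells, and several of them also act in the nucleus.

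MSC are adherent progenitors of the marrow that can turn into fat or bone cells, and here they were a primary line made from the marrow of male C57BL/6J mice, with 3 separately prepared cultures sequenced per group. In the first experiment, untransfected cells served as control, or received CK666, which inhibits the Arp2/3 complex, or cytochalasin D (CytoD), which binds filament barbed ends and blocks their growth. In the second, every culture was transfected. The groups were siControl, which received a control siRNA, siArp4, in which the siRNA was directed at the nuclear actin-related protein Arp4, and siArp4+CK666, in which the Arp4 siRNA was followed by CK666. CK666 and CytoD were read against the same control libraries, and both Arp4 groups against the same siControl libraries, so results that share a control are not independent of each other. Because all cultures came from 1 line, p-values measure the spread between cultures and not between animals.

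Total estimated counts ran from 18075610 to 24733212 in the 18 libraries. The siRNA target Actl6a, which encodes Arp4, had a mean normalized count of 895.8 ± 208.9 (SD, n = 3) in siControl. Under knockdown the mean was 41.7 ± 20.07 without and 16.77 ± 6.761 with CK666, and the siControl libraries lay above all of these. Of 12 stromal marker genes, Thy1 was at 0 in every library, Nt5e did not exceed 8.155, and Eng and Lepr were low, while Col1a1, Cxcl12, Pdgfrb and Itgb1 were abundant. Of 10 leukocyte markers, Ptprc, Itgam and Cd3e did not exceed 1.054 and Adgre1 was at 0 except in siArp4+CK666 replicate 3 (12.65), while Cd68, Csf1r and Lyz2 reached 112.7, 181.1 and 188.6, and the summed level of the 10 lay between 63.91 and 300.3. Replicates differed in the level of long genes against short ones. Relative to the other replicates of its group, the log2 level of the longest 25% of genes (merged exons of at least 7077 bases) against the shortest 25% (at most 2933) was 1.25 in siControl replicate 1, -1.09 in siControl replicate 2, -0.77 and 0.55 in CK666 replicates 1 and 2, 0.62 and -0.63 in siArp4+CK666 replicates 1 and 3, and within 0.32 of 0 in the others. The formins have 4666 (Fhod1) to 11553 (Diaph2) bases of merged exon, with Diaph2, Daam1 and Daam2 among the longest 25%. A fit with this length trend removed is given beside the formin calls it changes.

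The promoters of Diaph3 and Fmnl3 are shown because these were the formins that moved furthest down and up when CK666 was given to knockdown cells. Each is the 300-base RefSeq window from 250 bases before to 50 bases after the annotated start, on GRCm38.p6, written along the gene, and both genes lie on the minus strand. Capitals mark the CCAAT box, searched as CCAAT on both strands (ATTGG where it runs the other way). The Diaph3 window is chr14:87141175-87141474 and the Fmnl3 window is chr15:99370433-99370732.
Diaph3: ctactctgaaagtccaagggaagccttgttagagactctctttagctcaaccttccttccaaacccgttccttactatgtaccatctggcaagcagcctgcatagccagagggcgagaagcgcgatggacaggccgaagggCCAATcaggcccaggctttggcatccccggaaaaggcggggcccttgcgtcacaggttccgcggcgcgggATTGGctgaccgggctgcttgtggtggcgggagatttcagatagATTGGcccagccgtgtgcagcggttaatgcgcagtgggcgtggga
Fmnl3: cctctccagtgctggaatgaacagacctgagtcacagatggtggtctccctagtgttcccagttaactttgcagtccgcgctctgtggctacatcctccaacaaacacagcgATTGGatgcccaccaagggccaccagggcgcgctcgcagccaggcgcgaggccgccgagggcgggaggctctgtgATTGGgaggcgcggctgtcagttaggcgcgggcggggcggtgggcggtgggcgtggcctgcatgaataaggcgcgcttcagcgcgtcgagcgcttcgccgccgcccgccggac
The box begins at -109, -39 and 6 from the Diaph3 start and at -138 and -63 from the Fmnl3 start. Among 32851 mouse promoter windows of this length, 37.4% held at least 1 such box, so its presence does not set these genes apart. A window at an alternative start of Daam1 also held it. The cell cycle homology region, searched as TTTGAA on both strands and held by 17.9% of windows, was in none of the 12 windows of the 9 formins that were searched, and neither was the CArG box, held by 1.63%. The E2F letters TTCCCGC (4.6% of windows) were found for Fhod1 and Inf2, and the TEAD letters GGAATG (14.7%) for Fmnl3 and Inf2. Diaph1 was not searched.

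To compare formins with each other, levels were scaled to counts per kilobase of merged exon at a library total of 1000000 counts. Inf2, a formin that also severs and disassembles filaments, was the most abundant in all groups by the mean, at 75.2 ± 2.22 in control, 62.5 ± 3.21 in CK666, 87.3 ± 2.73 in CytoD, 46.7 ± 5.41 in siControl, 46.2 ± 1.27 in siArp4 and 48.3 ± 0.623 in siArp4+CK666. It made up between 40.1% and 46.8% of the summed formin level in every group. In control cells Diaph3 (32.6 ± 0.359) and Fmnl3 (30.4 ± 1.97) came next, then Diaph1 (20.9 ± 0.525), Fhod1 (14.1 ± 0.768) and Fmnl2 (5.25 ± 0.397). Diaph2, Daam1 and Daam2 stood at 4.14 ± 0.474, 3.64 ± 0.0721 and 1.29 ± 0.053, and the replicate ranges of Diaph2 and Daam1 overlapped. Fmnl1, the formin of blood cells, was at 11.69 normalized counts in CytoD replicate 1 and at or under 1.258 in all other libraries, and it was too low to test. All libraries with Arp4 knockdown were at 0, where up to 3 counts would still be allowed by the sampling of reads. The rank of Diaph1 and Diaph3 over all groups was exchanged when the longest transcript was used as the length in place of merged exons.

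**Figure D1:**
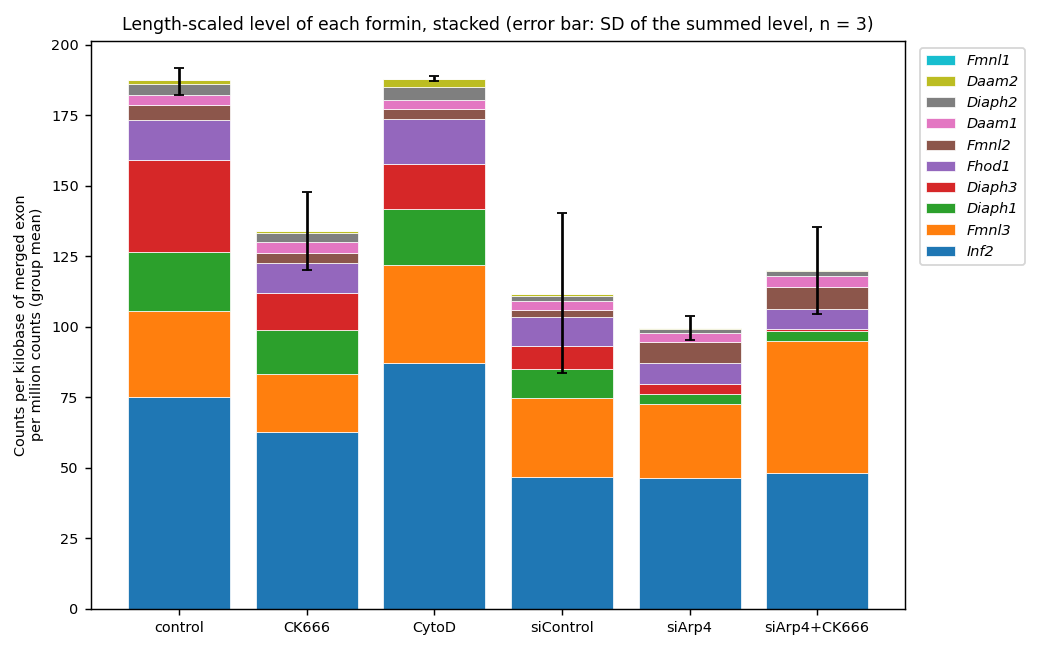
Stacked group means of the length-scaled level (counts per kilobase of merged exon at a library total of 1000000 counts) of the 10 formins in the 6 groups, with the SD of the summed level over 3 libraries as the error bar. Inf2 is the widest segment throughout, while Diaph3 narrows from 32.6 in control to 0.738 in siArp4+CK666 and Fmnl3 is widest there, at 46.6.

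The makeup of the family differed between groups. Diaph3 held 17.4 ± 0.624% of the summed level in control, 9.75 ± 1.21% in CK666, 8.33 ± 0.346% in CytoD, 6.87 ± 3.58% in siControl, 3.52 ± 0.37% in siArp4 and 0.602 ± 0.171% in siArp4+CK666. Fmnl3 held 16.2 ± 0.799% in control and 15.4 ± 0.296% in CK666, but 38.5 ± 4.03% in siArp4+CK666, where its level exceeded that of Inf2 in replicates 1 and 2 (50.5 and 53.8 against 49 and 48) and not in replicate 3 (35.5 against 47.9). Fmnl2 moved from 7th among the 10 in siControl, at 2.72 ± 1.89, to 3rd in siArp4, at 7.48 ± 1.11. The 10 summed to a length-scaled level of 187 ± 4.81 in control and 188 ± 0.808 in CytoD, against 134 ± 13.9 in CK666. In the second experiment the sum was 112 ± 28.4 in siControl, 99.6 ± 4.19 in siArp4 and 120 ± 15.4 with both treatments. In the first experiment the CK666 sums lay under those of the other groups, whereas in the second the sums of the 3 groups overlapped.

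A formin is said to have risen or fallen where its Benjamini-Hochberg adjusted p from the DESeq2 Wald test over all genes was below 0.01, and 9 of the 10 had enough counts to be tested. With CK666, 6 of the 9 fell and no formin rose, where 14.7% of 14597 tested genes fell and 15.3% rose. The median log2 fold change of the 9 was -0.46, against 0.01 over all genes. Of 10 tested stromal markers, 7 also fell with CK666 and 0 rose (median -0.58). Their summed normalized count was 66119 to 74459 in CK666 and 130991 to 137116 in control, and their part in the formin falls was not tested. With CytoD, Daam2 rose and Diaph3 fell, 1 of 9 in each direction where 13.6% of all genes rose and 16.0% fell, which is near that background, and the median was 0.05 against 0.01. CK666 set directly against CytoD had 5 formins lower (Diaph1, Daam2, Fmnl3, Inf2 and Fhod1), and no formin higher, where 14.9% of all genes were lower and 16.9% higher, and the medians were -0.44 and -0.03. With the length trend removed, Diaph2 (-0.50, adjusted p 0.00874) was also lower and Daam1 (0.37, adjusted p 0.00379) higher. The Diaph1 difference in it (-0.33, adjusted p 0.00163) was lost without CK666 replicate 3 or any single CytoD library, with adjusted p values between 0.0109 and 0.0296. Those for Fmnl3 (-0.70), Inf2 (-0.44) and Fhod1 (-0.55) had adjusted p values of 1.24e-12, 2.02e-08 and 1.3e-07.

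After Arp4 knockdown, Diaph1 and Daam2 fell and Fmnl2 rose, where 13.1% of all genes fell and 11.9% rose, so that the rises were near and the falls somewhat above the background, and the formin median was -0.18 against -0.05. In siArp4+CK666 against siControl 3 fell (Diaph1, Diaph3 and Daam2) and 2 rose (Fmnl2 and Fmnl3), where 15.8% of all genes fell and 14.0% rose, with medians of 0.01 and -0.05. Adding CK666 to knockdown cells gave 1 fall (Diaph3) and 1 rise (Fmnl3), where 6.07% of genes fell and 3.82% rose, and medians of 0.05 and 0.02. With the further requirement of an absolute log2 fold change over 1, the rule of the study, 1 formin was called for CK666 (11.0% of genes), 2 for CytoD (9.12%), 1 for CK666 against CytoD (11.8%), 2 for siArp4 (16.2%), 3 for siArp4+CK666 against siControl (20.4%) and 1 for siArp4+CK666 against siArp4 (5.75%). Their shares of the 9 lay on both sides of the background.

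**Figure D2:**
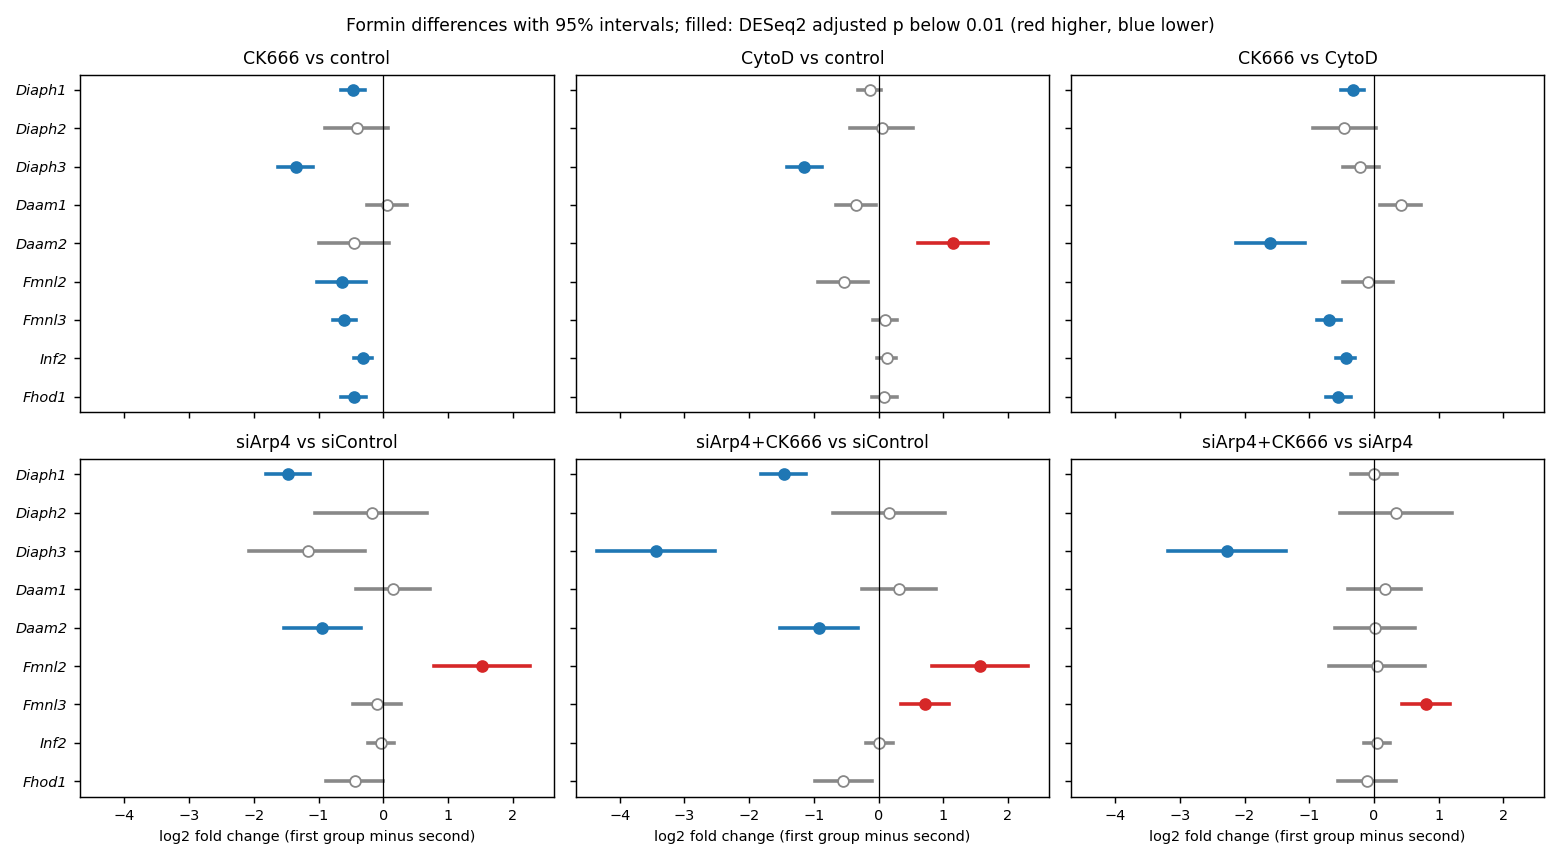
The log2 fold change (x axis, first group minus second) of the 9 tested formins in 6 comparisons, with 95% intervals, filled where the DESeq2 adjusted p was below 0.01. With CK666, 8 of 9 points lie left of 0, and in both comparisons with siControl Diaph1 and Diaph3 lie on the left and Fmnl2 on the right.

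Diaph3 is a Diaphanous-related formin known for its part in cell division and in filopodia, and its gene spans 86655367 to 87141235 on the minus strand of chromosome 14 (GRCm38). It fell in the comparisons with CK666, with CytoD and with the combined treatment. Normalized counts, which are comparable within an experiment, were 3772, 3681 and 3789 in control, 1156, 1700 and 1544 in CK666, and 1720, 1609 and 1753 in CytoD. Every treated library was therefore far under every control library, while the treated groups overlapped with each other. CK666 lowered it 2.55-fold, a log2 difference of -1.35 (SE 0.14, DESeq2 adjusted p 1.63e-20), and CytoD 2.21-fold, a difference of -1.15 (SE 0.14, adjusted p 6.86e-15). CK666 and CytoD did not differ detectably in Diaph3, by -0.21 with a 95% interval from -0.48 to 0.07. In bulk RNA, fewer cells of a kind that expresses a gene and less of its RNA per cell cannot be told apart.

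In the second experiment Diaph3 counts were 1420, 348.3 and 967.6 in siControl, 454.8, 369.3 and 390.7 in siArp4, with 115.3, 82.03 and 54.8 in siArp4+CK666. The siControl libraries were spread widely and replicate 2 lay under the siArp4 libraries, whereas all combined-treatment libraries lay under all others. The knockdown difference was -1.17 (SE 0.46, DESeq2 adjusted p 0.0325) and did not pass, although in the fit of all 18 libraries it did, at -1.14 with an adjusted p of 0.00358. Without siControl replicate 2, the library in which long genes were low, it was -1.57 with an adjusted p of 9.9e-07, and with the length trend removed it was -1.17 with an adjusted p of 0.0136. For siArp4+CK666 the difference from siControl was -3.44 (SE 0.46, adjusted p 2.01e-12), 10.9-fold lower. From siArp4 it was -2.27 (SE 0.46, adjusted p 2.37e-05), 4.82-fold lower, although edgeR gave an adjusted p of 0.0188 for the same difference.

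Diaph1, the founding Diaphanous-related formin and a main effector of RhoA in stress fiber assembly, fell with CK666 and fell further with Arp4 knockdown. Its counts were 2707, 2802 and 2706 in control, 1809, 2147 and 1972 in CK666, and 2415, 2530 and 2487 in CytoD. CK666 libraries lay under all control libraries, and the CytoD libraries lay between, also without overlap. The CK666 difference was -0.47 (SE 0.09, DESeq2 adjusted p 2.62e-06), and the CytoD difference of -0.14 (95% interval -0.32 to 0.04, adjusted p 0.215) did not pass. In the second experiment the counts were 1513, 1259 and 1248 in siControl, 437.9, 477.3 and 533 in siArp4, with 540.3, 483.6 and 423.6 in siArp4+CK666. Both Arp4 groups lay far under every siControl library and covered the same range as each other. The log2 fold change was -1.47 (SE 0.18) for siArp4, with an adjusted p of 1.87e-15, and also -1.47 for siArp4+CK666, with an adjusted p of 1.26e-15, each 2.78-fold lower. CK666 added to the knockdown changed it by 0.00 (95% interval -0.35 to 0.35).

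Diaph2, the X-linked Diaphanous formin, did not pass in either experiment. Counts were 868.6, 1079 and 1016 in control, 427.4, 1000 and 796 in CK666, and 1114, 978.6 and 965.5 in CytoD, and replicates of CK666 differed from each other more than the group means did. The siControl libraries held 680.7, 216.3 and 322.2, the siArp4 libraries 322.5, 390.9 and 360.7, and those of the combined treatment 643.9, 453.1 and 266.6. Diaph2 has the longest merged exons of the 10, and the libraries that were highest and lowest within siControl, CK666 and siArp4+CK666 were those in which long genes were highest and lowest against short ones. With the length trend removed the CK666 difference was -0.35 (DESeq2 adjusted p 0.0775). The log2 fold changes were -0.41 (95% interval -0.90 to 0.07) for CK666, 0.05 (-0.44 to 0.53) for CytoD and -0.18 (-1.05 to 0.68) for siArp4. Without CK666 replicate 2 the CK666 difference passed, at -0.69 with a DESeq2 adjusted p of 0.00714.

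The DAAM formins work downstream of Dishevelled in the planar branch of Wnt signaling, and their members behaved differently from each other. Daam2, on the minus strand of chromosome 17 from 49456022 to 49564343, was the only formin that rose with CytoD. Its counts were 260.2, 269.7 and 250.4 in control, 99.23, 245.7 and 225 in CK666, and 658.9, 568.2 and 504.9 in CytoD. All CytoD libraries were above all others, and the CK666 libraries were under the control libraries but widely spread. The CytoD difference was 1.15 (SE 0.27, DESeq2 adjusted p 0.000149), 2.22-fold higher. The summed leukocyte markers were also higher with CytoD (264.6 to 278.2) than in control (108.1 to 173.1), where 2 of the 3 tested, Cd68 and Lyz2, rose, and their part in the Daam2 result was not tested. The CK666 difference was -0.45 (SE 0.28, adjusted p 0.194), and CK666 against CytoD gave -1.60 (SE 0.28, adjusted p 5.22e-08), 3.04-fold lower.

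Daam2 counts in the second experiment were 207.9, 123.2 and 153.2 in siControl, 84.22, 66.95 and 102.2 in siArp4, with 87.76, 101.1 and 67.44 in siArp4+CK666. Both Arp4 groups lay under the siControl libraries and overlapped with each other. The differences were -0.94 (SE 0.31, DESeq2 adjusted p 0.00905) and -0.92 (SE 0.31, adjusted p 0.00922), which is close to the threshold. Both calls were lost under edgeR (adjusted p 0.0272 and 0.0248) and in each fit that left out a library of that experiment other than siControl replicate 2 (adjusted p 0.0102 to 0.0784). Daam1 ranged from 389.8 to 755.4 over the 18 libraries and passed in none of the comparisons. Its difference was 0.06 (95% interval -0.25 to 0.37) for CK666, -0.35 (-0.66 to -0.04, DESeq2 adjusted p 0.0682, and 0.00475 without CK666 replicate 1) for CytoD, and 0.15 (-0.42 to 0.72) for siArp4.

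The FMNL formins act at the leading edge, where Fmnl2 and Fmnl3 bind Cdc42 and drive lamellipodia and filopodia. Fmnl2, a plus-strand gene of chromosome 2 (52857860 to 53133804), fell with CK666 and rose with Arp4 knockdown. Counts were 572.6, 596.9 and 661.3 in control, 271.2, 464.8 and 440.8 in CK666, and 433.6, 412.4 and 410.1 in CytoD. Both treated groups lay under control, CytoD with little spread and CK666 with much. The CK666 difference was -0.64 (SE 0.19, DESeq2 adjusted p 0.00402) and the CytoD difference, -0.54 (SE 0.19, adjusted p 0.0164), did not pass. These calls turned on the libraries fitted: with edgeR, with only these groups in the fit, or without any single control library, the CK666 adjusted p was between 0.0119 and 0.0408, and with all 18 libraries it was 0.0977. The CytoD difference passed when CK666 replicate 1 or 2 was left out, with adjusted p values of 8.71e-06 and 0.00803.

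Fmnl2 counts were 497.9, 172.3 and 244.7 in siControl, 816.1, 793.7 and 1013 in siArp4, with 1144, 856.6 and 708.2 in siArp4+CK666. Every Arp4 knockdown library was above every siControl library. The rise was 1.52 (SE 0.38, DESeq2 adjusted p 0.000391) in siArp4, 2.86-fold, and 1.56 (SE 0.38, adjusted p 0.000195) in siArp4+CK666, 2.95-fold. edgeR placed these differences just outside the threshold (adjusted p 0.0137 and 0.0101), and with the length trend removed they were 1.52 and 1.50. CK666 changed Fmnl2 in knockdown cells by 0.05 (95% interval -0.69 to 0.78).

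Fmnl3, on the minus strand of chromosome 15 from 99317225 to 99370482, went in opposite directions with CK666 in the separate settings. Counts were 3236, 3286 and 2920 in control, 1914, 2165 and 2160 in CK666, and 3395, 3355 and 3359 in CytoD. CK666 libraries were all lower, and CytoD libraries slightly higher, than control. The CK666 difference was -0.60 (SE 0.09, DESeq2 adjusted p 1.73e-09), 1.51-fold lower, and the CytoD difference was 0.10 (95% interval -0.08 to 0.28). In the second experiment counts were 3306, 2817 and 2633 in siControl, 2694, 2566 and 2948 in siArp4, with 5054, 5499 and 3800 in siArp4+CK666.

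With knockdown alone the Fmnl3 libraries overlapped with siControl (-0.09, 95% interval -0.47 to 0.28), and the combined treatment lay above both other groups without overlap. The rise was 0.71 (SE 0.19, DESeq2 adjusted p 0.000916) over siControl and 0.81 (SE 0.19, adjusted p 0.000438) over siArp4, 1.75-fold. Leaving out siArp4 replicate 1 or 2, or siArp4+CK666 replicate 1 or 2, moved the rise over siArp4 out of the called range, to adjusted p values between 0.0145 and 0.0236, with the difference between 0.70 and 0.79. The rise over siControl was lost likewise without siControl replicate 3 or siArp4+CK666 replicate 1 or 2, with adjusted p values between 0.0146 and 0.0226. Neither rise passed with edgeR (adjusted p 0.0102 over siControl and 0.0176 over siArp4). With only siControl and siArp4+CK666 in the fit, the rise over siControl did not pass either (DESeq2 adjusted p 0.014).

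Inf2, a plus-strand gene of chromosome 12 (112588784 to 112615557), fell with CK666 by a small amount and did not pass with CytoD or Arp4 knockdown in the fit as made. Counts were 7450, 7778 and 7474 in control, 6008, 6272 and 6043 in CK666, and 7906, 8245 and 8632 in CytoD. The groups did not overlap, with CK666 the lowest and CytoD the highest. The CK666 difference was -0.31 (SE 0.07, DESeq2 adjusted p 0.000121) and the CytoD difference was 0.13 (95% interval -0.02 to 0.27, adjusted p 0.162). The latter passed with the length trend removed, at 0.19 with a DESeq2 adjusted p of 0.00906. Leaving out CK666 replicate 3 or control replicate 2 removed the CK666 call, with adjusted p values of 0.0156 and 0.0101. In the second experiment counts were 4522, 5038 and 4809 in siControl, 4807, 4731 and 4483 in siArp4, with 4757, 4759 and 4976 in siArp4+CK666. These groups overlapped fully, and the intervals bounded a knockdown difference to between -0.24 and 0.17.

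Fhod1, a stress fiber formin controlled by Rac and by ROCK kinase, also fell with CK666 and not with CytoD. Its counts were 1328, 1432 and 1306 in control, 968.7, 927.6 and 1056 in CK666, and 1407, 1486 and 1433 in CytoD, so that CK666 was under both other groups without overlap. The CK666 difference was -0.46 (SE 0.10, DESeq2 adjusted p 1.47e-05), and the CytoD difference was 0.09 (95% interval -0.10 to 0.28). Counts were 1113, 806.1 and 1001 in siControl, 734.4, 611.2 and 801.5 in siArp4, with 818.4, 619.1 and 557.5 in siArp4+CK666. The Arp4 groups were lower on average by -0.44 (adjusted p 0.115) and -0.55 (adjusted p 0.0386), and neither difference passed. Without siControl replicate 2 or siArp4+CK666 replicate 1 the latter did, with adjusted p values of 0.00655 and 0.0091, and so it did with all 18 libraries fitted (0.00105). Fhod1 shares 116 exon bases with Tmem208 on the other strand (mean normalized count 989). In unstranded libraries, reads lying wholly within the shared stretch cannot be assigned by their sequence alone.

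**Figure D3:**
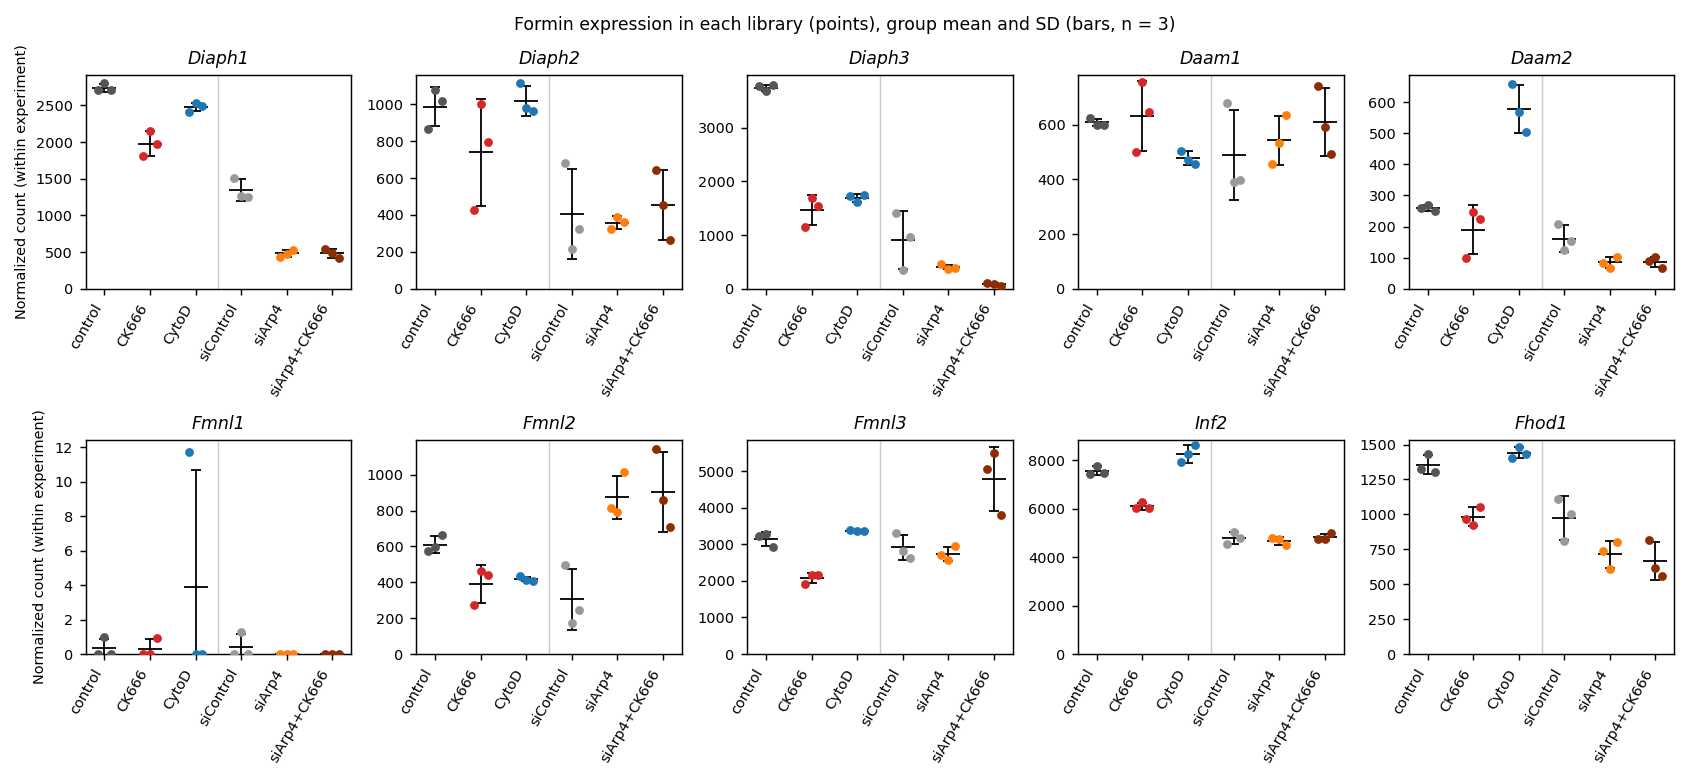
Normalized count of each of the 10 formins in each library (points), with the group mean and SD (n = 3), the first experiment left of the grey line and the second right of it, where levels are comparable within an experiment. Diaph3 is lower in all CK666 and CytoD libraries than in control and lowest in siArp4+CK666 (54.8 to 115.3), Daam2 is highest in CytoD, and Fmnl3 is highest in siArp4+CK666.

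Whether CK666 acted alike on formins with and without Arp4 was tested as an interaction, the CK666 effect in knockdown cells minus that in untransfected cells. Cells with Arp4 present had not been transfected and came from the other experiment, so knockdown, transfection and experiment cannot be told apart in it. Fmnl3 had an interaction of 1.40 (SE 0.19, DESeq2 adjusted p 7.54e-12) and Inf2 of 0.35 (SE 0.10, adjusted p 0.00408), 2 of 9 formins with a positive interaction and none with a negative value that passed, where 3.76% of 13511 genes had a positive and 4.06% a negative interaction. With an absolute interaction over 1 as well, 4.42% of genes and, among formins, Fmnl3 were called. For Inf2 this reflects a fall of 0.31 in untransfected cells and a difference of 0.05 (95% interval -0.16 to 0.25) in knockdown cells. The Inf2 call was lost with edgeR (adjusted p 0.0842) and with the length trend removed (adjusted p 0.0269), while that of Fmnl3 held in both. It was also lost when any of 10 of the 12 libraries in these groups was left out (adjusted p 0.0103 to 0.0295). Diaph1 (0.47, adjusted p 0.0327) and Diaph3 (-0.93, 95% interval -1.90 to 0.04) did not pass, although Diaph1 did with the length trend removed (0.36, adjusted p 0.00932).

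**Figure D4:**
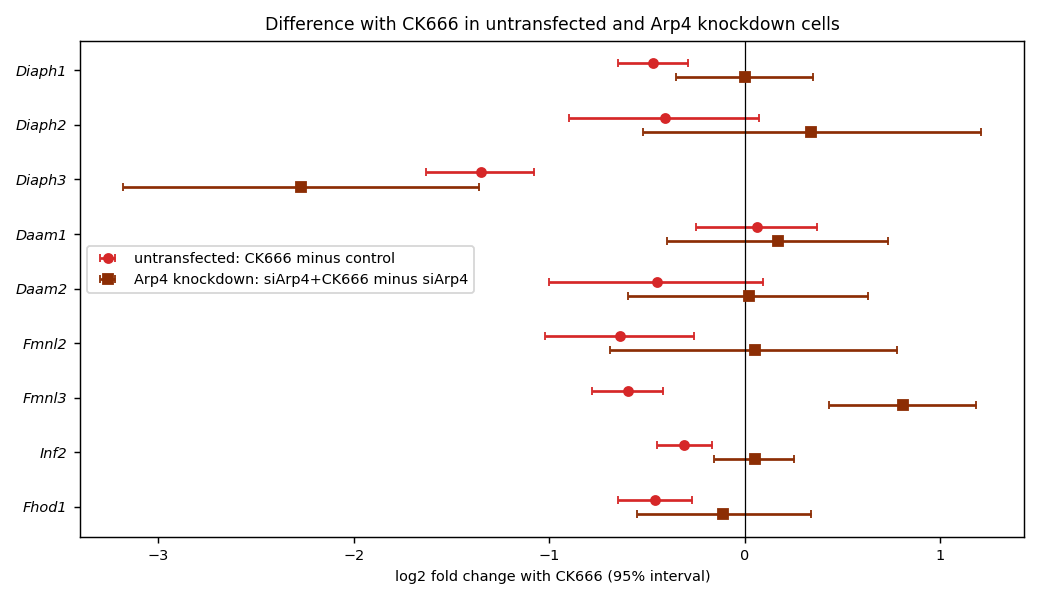
The log2 fold change with CK666 (x axis, 95% interval) for 9 formins in untransfected cells (circles) and in Arp4 knockdown cells (squares). Fmnl3 lies at -0.60 in the first and at 0.81 in the second, and Diaph3 lies left of 0 in both, at -1.35 and -2.27.

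Formin levels also differed between the control groups of the experiments, siControl against control. Here 6 of 9 fell and none rose, where 20.4% of all genes fell and 21.7% rose, and transfection and experiment cannot be told apart. The rule with a log2 fold change over 1 called Diaph2 and Diaph3, and 24.1% of all genes. The falls were 1.99 on the log2 scale for Diaph3 (DESeq2 adjusted p 4.96e-08), and for Diaph1 the difference was -0.98 (adjusted p 7.34e-18). Diaph2 (-1.24), Fmnl2 (-0.95), Inf2 (-0.61) and Fhod1 (-0.43) were the others, and Daam1, Daam2 and Fmnl3 did not pass. Removing the length trend moved Diaph2 to -0.75 and left Fhod1 uncalled (adjusted p 0.0289). With edgeR, Diaph2, Fmnl2 and Fhod1 did not pass (adjusted p 0.0123, 0.015 and 0.0216). These formins were also lost without siControl replicate 2 (DESeq2 adjusted p 0.023, 0.0358 and 0.0629). Fhod1 was lost with TMM scaling as well (DESeq2 adjusted p 0.0247).

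Diaph3 was set beside 13 genes of cytokinesis and mitosis, among them Anln of the contractile ring, Racgap1, the kinases Aurkb and Plk1, and Mki67. All 13 fell with CK666 (median log2 fold change -1.20), with CytoD (-1.09), with siArp4 (-1.71) and with siArp4+CK666 against siControl (-3.57), and 12 fell in siArp4+CK666 against siArp4 (-1.86). The Diaph3 values in those comparisons were -1.35, -1.15, -1.17, -3.44 and -2.27. In fits that left out a library the siArp4 calls of Anln, Ect2, Kif23 and Prc1, and that of Kif23 against siArp4, were lost at least once. Diaph3 lay inside the range of the list in each of them, and near its lower end in the last, where the list ran from -2.30 to -1.46. The summed normalized count of the list was 60421 to 62598 in control, 24325 to 26685 in CK666, 29315 to 30637 in CytoD, 18423 to 22367 in siControl, 6438 to 7198 in siArp4 and 1751 to 2234 in siArp4+CK666, and its part in the Diaph3 result was not tested.

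**Figure D5:**
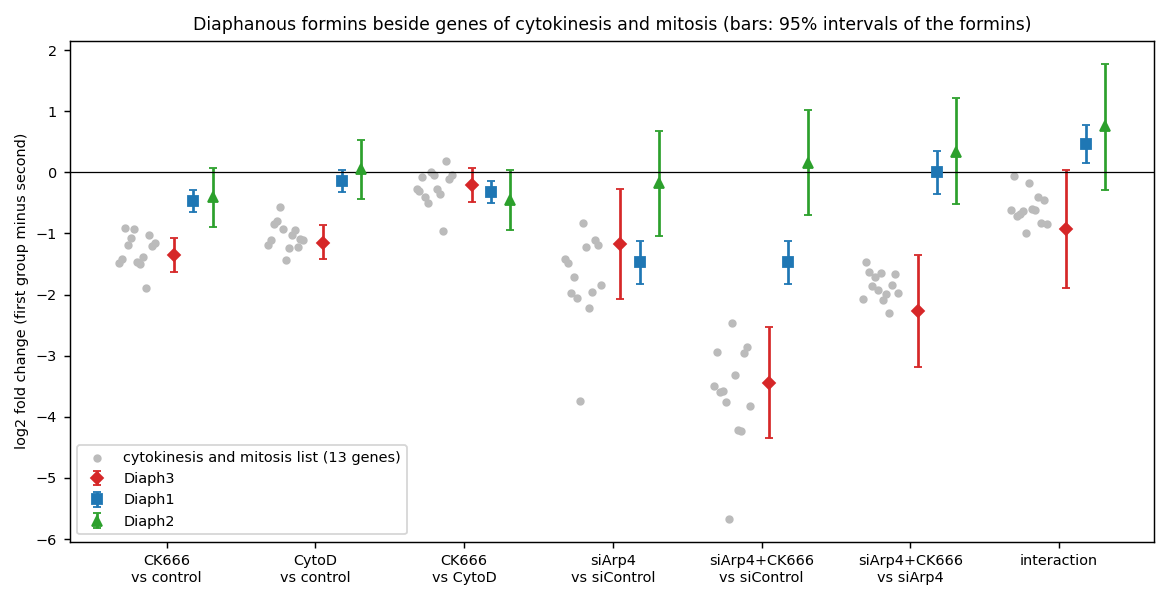
The log2 fold change (y axis, first group minus second) of Diaph3, Diaph1 and Diaph2 with 95% intervals beside 13 genes of cytokinesis and mitosis (grey points) in 6 comparisons and the interaction. Diaph3 lies within the range of the grey points throughout, Diaph1 at -1.47 in both comparisons with siControl, and the intervals of Diaph2 include 0 in all of them.

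Across the 18 libraries, with each experiment's mean taken off, the median Pearson correlation with the 13 genes was 0.931 (0.812 to 0.976) for Diaph3, 0.805 for Diaph1 and 0.629 for Fhod1. It was 0.376 for Daam2, -0.403 for Fmnl3 and -0.459 for Fmnl2, and within 0.255 of 0 for the other formins. These values are descriptions over libraries that share their groups, their depth and the length trend. By the same measure over 9891 genes, those most like Diaph3 were Loxl3 (0.982), Knl1 (0.978), a kinetochore protein, and Anln (0.976). Among the closest to Diaph1 were Actr2, which encodes the Arp2 subunit of the Arp2/3 complex, and Osbp, at 0.981 and 0.976. Fmnl2 was closest to Mical2 (0.991), an enzyme that oxidizes actin, Galnt1 (0.986) and Clasp1 (0.979). For Fmnl3 they were Ezr (0.947), which links actin to the membrane, Irs2 (0.922) and Arid5b (0.903). Genes close to Daam2 included Nynrin and Nlgn2 (0.943 and 0.939), and Diaph2 was closest to Yeats2, Ncoa2 and Fndc3b (0.957, 0.950 and 0.950).

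The 5 other formins were read for comparison. Fhod3, the sarcomere formin, Fhdc1 and Fmn1 were tested, and Fmn2 and Grid2ip were too low. All 3 fell with CK666, by 1.31, 1.68 and 1.08 on the log2 scale (DESeq2 adjusted p 5.35e-08, 4.78e-36 and 7.82e-12). With CytoD their log2 fold changes were -1.78, -0.70 and -0.94, all past the threshold. With siArp4 they lay between 0.19 and 0.36, and DESeq2 called 0 of them, with 0 at an unadjusted p below 0.05 in either direction. All 3 were lower in siControl than in control (between -2.41 and -1.74, each called), where transfection and experiment cannot be told apart. In the interaction 1 of the 3 passed, with a positive value. In knockdown cells CK666 lowered Fhdc1 alone, by -0.68 (adjusted p 0.00383), a call lost in 5 of 9 fits that left out a library.

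Upstream of the formins stand the small GTPases that open them. With CK666, 4 of 7 listed GTPases fell: Rhob (-2.34, DESeq2 adjusted p 9.6e-143), Rhoa (-0.63), Rac1 (-0.63) and Cdc42 (-0.61), while Rhoc was at 0.10 (adjusted p 0.693). With CytoD, Rhob fell (-0.55, adjusted p 8.23e-09), and Rhoa (-0.22), Cdc42 (-0.11) and Rhoc (-0.06) did not pass. After Arp4 knockdown 3 rose, Rhob by 2.61 (adjusted p 2.28e-44), Rhod by 1.37 and Cdc42 by 0.58. Rhoa (0.26) and Rhoc (0.37) did not pass. CK666 in knockdown cells lowered Rhob (-1.76), Rhoa (-0.83) and Cdc42 (-0.41). The Cdc42 call was lost in 7 of 9 fits that left out a library. In siArp4+CK666 against siControl, Rhob (0.86) and Rhod (1.77) were higher and Rhoa (-0.57) lower.

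Among 6 exchange factors that load small GTPases with GTP, Ect2 and Net1 fell with CK666 (-1.41 and -0.75) and Arhgef2 rose (0.78). With CytoD, Net1 rose (0.73), and Ect2 (-1.10) and Arhgef2 (-0.51) fell. Ect2, which is also on the cytokinesis list, was the 1 factor that fell with siArp4 (-1.48, DESeq2 adjusted p 0.00674), a call lost in 6 of 9 fits that left out a library. The formin regulators and partners held 12 tested genes. Of these, CK666 lowered 1, Cap1 (-0.80), and CytoD lowered Rock2 (-0.78) and Dvl1 (-0.63) and raised Srgap2 (0.45). The CytoD calls of Arhgef2 and Srgap2 were lost in 5 and 4 of 9 fits of that kind. Knockdown lowered 6 and raised 1, led by the Dishevelled gene Dvl3 (-1.96), Flii (-1.47) and Nckipsd (-0.91), and in siArp4+CK666 against siControl the count was 6 lower, led by Flii (-1.65), Dvl3 (-1.50) and Nckipsd (-1.29). Flii stood at 1306, 5714 and 2407 in siControl, and without replicate 2 its differences were -0.72 (adjusted p 0.0794) and -0.90 (adjusted p 0.0214), so that neither passed.

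Profilins feed actin to formins. Pfn1 fell with CK666 (-0.83, DESeq2 adjusted p 3.61e-06), with siArp4 (-1.41, adjusted p 0.00609) and with siArp4+CK666 against siControl (-1.89, adjusted p 0.000107), and stood at -0.45 (adjusted p 0.0174) with CytoD. Its siControl counts were 9470, 37667 and 17292, with replicate 2 far above the others. Without that library the siArp4 difference was -0.74 (adjusted p 0.0509) and that of siArp4+CK666 -1.21 (adjusted p 0.000484), and the siArp4 call was lost in 6 of 9 fits that left out a library. Pfn2 moved the other way in 3 of these: it rose with CK666 (0.55), with siArp4 (2.75) and with siArp4+CK666 (1.97), and fell with CytoD (-0.45), a call lost in 4 of 9 such fits. Capping proteins compete with formins for barbed ends. Of 4, Capza1 (-0.68) and Capzb (-0.40) fell with CK666, Capg rose with CytoD (0.66) and Capza2 rose with siArp4 (0.70, lost in 7 of 9 such fits).

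Among 8 other genes that start or lengthen unbranched filaments, Spire1 (0.89) and Jmy (0.81) rose with CK666, and Lmod1 (-1.99) and Spire2 (-1.36) fell. Lmod1 and Spire2 were low, at 42.56 to 71.09 and 47.6 to 70.11 normalized counts in control. CytoD lowered Spire1 (-0.61), and Arp4 knockdown raised Enah (1.02), which encodes the elongator Mena. Tropomyosins coat filaments that formins build. Of 4, Tpm4 (-0.85), Tpm1 (-0.81) and Tpm3 (-0.72) fell with CK666, and the same symbols fell with CytoD (-0.96, -0.92 and -0.56). With siArp4, Tpm1 rose (0.72) and Tpm4 fell (-0.99), and all 4 fell when CK666 was added to the knockdown, led by Tpm2 (-1.49). Calls lost in fits that left out a library were those of Spire2 with CK666 (2 of 9 fits), Spire1 with CytoD (6), Enah with siArp4 (5, among them siControl replicate 2, at 0.81 with a DESeq2 adjusted p of 0.0112), and Tpm2, Tpm3 and Tpm4 in siArp4+CK666 against siArp4 (5, 7 and 7).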

How the data were processed

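RNA-seq libraries were unstranded and paired-end. The authors quantified them with Salmon 1.2.1 on GRCm38 with GENCODE vM25 and deposited estimated counts (expected counts) per gene. How transcripts were combined per gene, and whether counts were scaled by length, is stated neither in the paper nor in the labels; 0% of nonzero values were whole numbers. All 18 columns matched a sample, and no replicate pair was a repeat (chi-square per degree of freedom at least 6.79). Symbols (54094 of 54347 identifiers), coordinates and merged exons came from GENCODE vM21 on the same build. Expected counts were rounded to whole numbers and tested with DESeq2 1.42.0 in R 4.3.3 (Wald test, two-sided, Benjamini-Hochberg over all genes, adjusted p below 0.01), the tool the study names. The 9 libraries of an experiment were fitted together with group as the only term. The interaction and siControl against control used all 18. Normalized counts were divided by the size factors of their experiment, and in the statement of control levels between experiments by those of all 18.

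The formins and the gene lists were chosen with earlier results of these data known, and their counts are descriptions. Text names all 10 formins, Rhoa, Rhob, Rhoc, Cdc42 and Pfn1, and from each other list at most the 3 largest changes that passed per comparison; Thy1 and the other marker genes are named from the marker lists. Likeness was the Pearson correlation of log2(normalized count + 1) among genes with a mean of at least 100. Some genes that this measure names are not reported here. Promoters came from RefSeq (GRCm38.p6). Alternatives were edgeR 4.0.16 (quasi-likelihood), TMM scaling, a filter at 10 counts in 3 libraries, an adjusted p of 0.05, other sets of libraries, a replicate block, and leaving out each library. Removal of the length trend was added after the data were seen. Scripts were tested on simulated data.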

Additional observations from a re-analysis of the deposited data

Results flagged for a closer look

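For 2 formins the difference made by CK666 was itself different in Arp4 knockdown cells and in untransfected cells. For Fmnl3 the knockdown effect exceeded the untransfected effect by 1.40 on the log2 scale (SE 0.19, DESeq2 adjusted p 7.54e-12), with a fall in the latter and a rise in the former. Its counts fell from 2920 to 3286 in control to 1914 to 2165 with CK666, and rose from 2566 to 2948 in siArp4 to 3800 to 5499 in siArp4+CK666, and the groups in each pair did not overlap. The Fmnl3 interaction held with edgeR (adjusted p 0.000185), but the rise over siArp4 did not pass with it (adjusted p 0.0176). That rise was also lost without siArp4 replicate 1 or 2, or without siArp4+CK666 replicate 1 or 2. For Inf2 the excess was 0.35 (SE 0.10, DESeq2 adjusted p 0.00408), and this call was lost with edgeR, with the length trend removed, and when any of 10 of the 12 libraries of these groups was left out. Transfection and experiment differed along with knockdown in both, and their part was not tested.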

How the results depend on the processing

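The number of formins past the threshold was within 1.5 times the reported number under TMM scaling, the low-count filter, the wider threshold and the fit with the length trend removed. With edgeR it was 1 for siArp4 (lost: Daam2 and Fmnl2), 2 for siArp4+CK666 against siControl, 1 for the interaction, 3 for siControl against control, and 0 for siArp4+CK666 against siArp4, where 2 had an unadjusted p below 0.05 and DESeq2 called 2. With only the compared groups in the fit it was 4 for CytoD (gained: Daam1 and Fmnl2) and 3 for siArp4+CK666 against siControl. The cause was not tested. Over fits that left out a library each, the number ran from 4 to 7 for CK666, 2 to 4 for CytoD, 4 to 6 for CK666 against CytoD, 2 to 4 for siArp4, 3 to 6 for siArp4+CK666 against siControl, 1 to 2 against siArp4, 1 to 2 for the interaction and 3 to 7 for siControl against control. With a replicate block the number was 2 for siArp4 and 4 for siArp4+CK666 against siControl, the lost call being Daam2 in both (adjusted p 0.0254 and 0.0268), and no other number changed. Deviations of same-numbered libraries correlated at over 0.1 in 3 of 9 pairs in each experiment (lowest -0.58, highest 0.74). In the first experiment these were the CK666 and control pairs (0.29, 0.23 and 0.17 for replicates 1, 2 and 3). Most pairs did not deviate together, and the main fit did not take the numbers to pair the cultures. For single formins, 1239 values kept their side of the threshold, 87 lost a call and 24 gained one. The sign changed in 34, all among the 1239 and uncalled in both fits. With 3 libraries per group, a difference in a formin as variable as Diaph2 could be bounded only to about its interval.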
